A study of Rattus norvegicus with 12 samples.

Results

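The Hox genes of the rat cervix were followed with the 37 probes of the array whose gene name in the scanner files begins with Hoxa, Hoxb, Hoxc or Hoxd and a digit, of 30367 probes in all. They stand for 31 gene names in those files, of 26583 in all. Cells had been dispersed with collagenase from the cervix of 12 adult female Sprague Dawley rats that were perfused with saline, and each rat gave 1 of 12 one-colour Agilent arrays. The 6 nonpregnant (NP) rats were in proestrus, and the 6 pregnant rats were at D21, which is 21 days after breeding and as a rule 1 day short of birth. In each state, 3 rats gave the whole cell suspension (whole cervix) and 3 other rats a suspension from which macrophages (Mφs) had been taken with the ED1 antibody and magnetic beads (depleted cervix). The whole suspensions did not go through antibody and beads before they were frozen, so the groups differ in handling as well as in Mφs. The labels give no other treatment and no genetic modification.

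Hox genes encode transcription factors with a homeodomain, which bind DNA and set position along the body axis. In mammals they lie in 4 clusters, and the paralog number of a gene gives its place in its cluster and, roughly, where along the axis it is active, low numbers near the head and high numbers near the tail. In the female tract the high numbers of the Hoxa cluster pattern the Müllerian duct, Hoxa9 in the oviduct, Hoxa10 in the uterus, Hoxa11 in the uterus and cervix, and Hoxa13 in the vagina, and these genes stay active in the adult tract, chiefly in stroma. Hox proteins bind DNA together with cofactors of the TALE class such as Pbx and Meis proteins.

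Among the genes around which the results turn are Hoxd9, Hoxd10, Hoxa10, Hoxa11 and Hoxa13, and the 250 bases before the start are shown here for all of them but Hoxa10, which has more than 1 start in the RefSeq table, as the nearest regulatory sequence, 5′ to 3′ on the strand of the gene, from RefSeq on GRCr8. Their positions are chr3:80007756-80008005 on the plus strand, chr3:80001697-80001946 on the plus strand, chr4:82676802-82677051 on the minus strand and chr4:82691702-82691951 on the minus strand, in that order. Capitals mark each match, on either strand, to CCAAT, the core of the CCAAT box of many promoters, and to GGTCA, the half-site that nuclear receptors such as the estrogen receptor read.
Hoxd9: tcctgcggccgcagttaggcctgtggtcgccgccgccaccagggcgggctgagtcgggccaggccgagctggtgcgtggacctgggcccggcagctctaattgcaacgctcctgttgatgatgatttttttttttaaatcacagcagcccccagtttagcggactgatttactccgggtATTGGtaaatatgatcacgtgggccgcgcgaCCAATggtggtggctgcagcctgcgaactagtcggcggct
Hoxd10: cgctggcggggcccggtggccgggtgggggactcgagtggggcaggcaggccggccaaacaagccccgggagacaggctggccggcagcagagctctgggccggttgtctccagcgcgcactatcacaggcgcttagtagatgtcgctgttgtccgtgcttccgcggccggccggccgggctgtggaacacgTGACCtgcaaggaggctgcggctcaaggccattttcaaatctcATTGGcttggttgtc
Hoxa11: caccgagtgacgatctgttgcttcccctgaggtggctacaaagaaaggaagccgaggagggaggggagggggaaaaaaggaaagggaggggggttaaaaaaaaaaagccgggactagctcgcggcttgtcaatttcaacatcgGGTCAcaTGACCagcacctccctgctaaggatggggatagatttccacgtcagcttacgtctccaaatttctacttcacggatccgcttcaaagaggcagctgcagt
Hoxa13: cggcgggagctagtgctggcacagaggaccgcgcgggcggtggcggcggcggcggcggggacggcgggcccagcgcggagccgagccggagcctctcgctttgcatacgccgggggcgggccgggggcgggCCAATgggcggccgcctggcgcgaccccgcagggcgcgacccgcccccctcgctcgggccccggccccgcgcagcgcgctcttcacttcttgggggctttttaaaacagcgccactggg
CCAAT was found 2 times before Hoxd9, 1 time before Hoxd10 and 1 time before Hoxa13, and GGTCA was found 1 time before Hoxd10 and 2 times before Hoxa11. These letters are common: 34.0% of the 33469 promoters of the same length in the table held CCAAT and 35.4% held GGTCA, and the motifs do not overlap each other in the 4 sequences. A match is a description of the letters only.

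Values are the log2 of the spot's processed intensity minus the log2 of the 75th percentile of its array, so 0 is the level of that percentile, and a difference of 1 is a 2-fold change. The level of one probe is not set against that of another, because probes differ in brightness. A probe was tested in a comparison if, in 1 or more of its groups, all 3 arrays had it well above background as the scanner software rates spots. A probe was called at a Benjamini-Hochberg adjusted p under 0.05 in limma, adjusted over all probes tested. The share of probes well above background was lowest on the array of NP depleted rat 7, at 44.9%, and highest on that of NP depleted rat 5, at 61.7%. The arrays lay on 4 slides read on 3 scan days: all 6 whole arrays were read on the last of these days, together with NP depleted rat 7 and D21 depleted rat 4, and D21 depleted rat 1 lay alone among the 12 on its slide. With 3 rats a group, the number of arrays limits the precision.

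Names follow RefSeq where the accession of the probe matched, as it did for 19 of the 37 probes. By that match the probe the array calls Hoxa9 belongs to Hoxa7 and 1 of 2 probes it calls Hoxa10 belongs to Hoxa11, and they are so named here. The probe called Hoxa9l, an older name that RefSeq lists for Hoxa9, keeps the name of the files. In rn4, the build of the files, Hoxd9 was probed at chr3:57314446-57314505, Hoxd10 at chr3:57309214-57309273, Hoxa10 at chr4:80531924-80531983, Hoxa11 at chr4:80542437-80542496 and Hoxa13 at chr4:80558903-80558962. The 3 probes called Hoxc9 have an unsettled position: they share 1 accession, but 2 are mapped beside each other and the third, the only one of them that passed the test's filter, lies at chr7:141775172-141775231, between the probes of Hoxc6 and Hoxc5. The longest run of bases that any pair of the 37 probes shared, on either strand, was 12 of 60.

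Of the 37 Hox probes, 7 were well above background on all 12 arrays, 12 on none and 18 on some. The 7 were those of Hoxb4, Hoxb5, Hoxb6 and Hoxb7, neighbours in the Hoxb cluster, and of Hoxa5, Hoxa11 and Hoxd9. At paralog positions 1 to 3, which pattern the hindbrain, 5 of 7 probes were above background on no array, and Hoxa2 was the only one above it on all 3 arrays of any group. At positions 4 to 8, 8 of 14 probes passed in at least 1 comparison, and at positions 9 to 13, 6 of 13. In the Hoxb cluster the single probes of Hoxb1, Hoxb2, Hoxb9 and Hoxb13 were above background on none of the 12 arrays, which is no comparison of the levels of these genes with those of others. In the Hoxc cluster no probe was above background on all 3 NP whole arrays. Genes with 2 settled probes included Hoxc5, on 0 and 2 arrays, and Hoxb8, on 4 and 11 arrays, and for Hoxb8 the probe with 11 is described. In all, 16 probes were tested in at least 1 comparison.

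**Figure D1:**
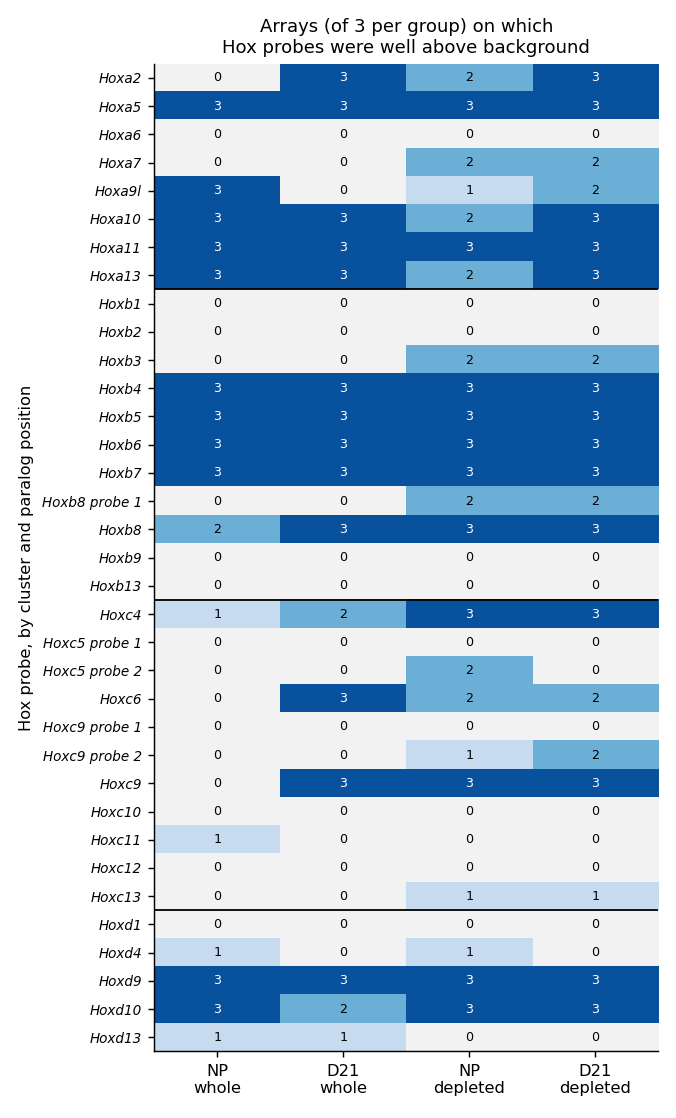
Number of arrays, of 3 in each of the 4 groups (columns), on which 35 of the 37 Hox probes (rows, by cluster and paralog position) were rated well above background by the scanner software; darker blue is more arrays. Hoxb4 to Hoxb7 are at 3 in each group, while Hoxb1, Hoxb2, Hoxb9 and Hoxb13 are at 0 in each group.

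The suspensions differed in more than Mφs. Of 15 Mφ markers, 12 of 13 tested were higher in whole than in depleted NP cervix and 14 of 15 in D21 cervix, with medians of 6.07 and 5.28 on the log2 scale, the exception in both being Cd68, the antigen of ED1. Adgre1, Mrc1, Ccr1 and Mpeg1 were above background on no depleted array. Smooth muscle markers were also higher in whole cervix, 10 of 10 in NP rats with a median of 4.50 and 7 of 10 in D21 rats with a median of 2.63, and so were fibroblast markers, 9 of 10 with a median of 4.24 in NP rats and 3 of 10 with a median of 1.09 in D21 rats. Epithelial markers were lower, 6 of 10 with a median of -1.28 in NP rats and 4 of 10 with a median of -0.69 in D21 rats. The mean of the fibroblast list over an array ran from 4.14 to 4.37 in NP whole, 4.15 to 4.56 in D21 whole, -0.83 to 0.44 in NP depleted and 2.27 to 3.23 in D21 depleted cervix, and that of the smooth muscle list from 3.97 to 4.45, 3.24 to 3.69, -0.56 to -0.05 and 0.30 to 1.40. That of the epithelial list ran from 2.85 to 3.12, 4.04 to 4.43, 4.30 to 4.81 and 4.90 to 5.06 in the same order, and none of the markers of these 3 lists was below background on every array of a group. In such mixed suspensions fewer cells of a type and less RNA per cell cannot be told apart. The part of these shifts in the Hox results was not tested.

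**Figure D2:**
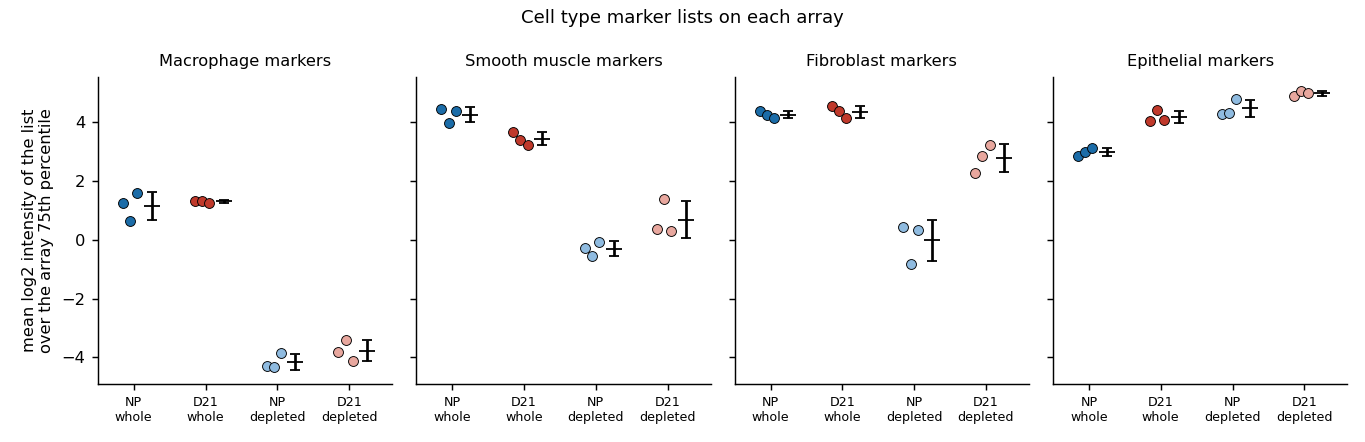
Mean log2 intensity over the array's 75th percentile for 4 lists of marker genes (15 Mφ, 10 smooth muscle, 10 fibroblast and 10 epithelial genes), 1 point per rat with the mean and SD of 3 rats beside each group. The depleted groups lie below the whole groups for the first 3 lists, and the NP depleted rats lie lowest for the fibroblast list.

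The whole cervix was compared between D21 rats and NP rats in proestrus. No earlier day of pregnancy was sampled, so a change as birth approaches cannot be told from other differences between the 2 states. Hoxd9, Hoxd10, Hoxa10 and Hoxa11 were lower at D21, with log2 changes of -2.71, -2.93, -1.88 and -2.56, which is 6.55-, 7.63-, 3.69- and 5.90-fold. They made 4 of the 15 Hox probes tested, where 0.694% of all 15983 probes tested were called lower. No Hox probe was called higher, where 2.02% of all probes were. In the 2 directions 4 Hox probes were higher and 5 lower at an unadjusted p under 0.05 in limma, where 2899 of all 15983 probes were in either direction. The methods' test for unequal variances called 0 Hox probes in either direction after adjustment, and 0 of all probes. At the methods' own threshold, an unadjusted p under 0.01 with a change of at least 2-fold, that test called Hoxa9l, Hoxd9 and Hoxd10 lower, but not Hoxa10 or Hoxa11. Of all 15983 probes it called 360 higher and 216 lower at that threshold.

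Hoxd9 and Hoxd10 are neighbours in the Hoxd cluster that act in limb, spinal cord and the lower trunk. Hoxd9 was at 1.32, 0.58 and 0.90 in NP rats 8, 9 and 10 and at -1.50, -1.84 and -2.0 in D21 rats 5, 6 and 7, with means of 0.93 ± 0.37 (SD, n = 3) and -1.78 ± 0.25 (SD, n = 3). The change was -2.71 with a standard error of 0.31 (limma, adjusted p = 0.0071). Hoxd10 was at -0.14, -0.88 and -0.77 in the NP rats and at -3.46, -3.05 and -4.08 in the D21 rats, where 2 of 3 arrays had it above background, so that it passed the filter only through the NP arrays. Each D21 rat lay below each NP rat by more than 2 on the log2 scale, and the change was -2.93 with a standard error of 0.49 (limma, adjusted p = 0.017).

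In the Hoxa cluster, Hoxa10, a gene of the uterus that progesterone and estrogen act on, was at 1.27, 1.88 and 0.97 in NP rats and at -0.34, -0.63 and -0.56 in D21 rats. Hoxa11, its neighbour, was at 2.31, 2.87 and 1.69 in NP rats and at -0.14, -0.30 and -0.36 in D21 rats. In both genes the NP rats spread more widely than the D21 rats. Hoxa10 differed by -1.88 with a standard error of 0.38 (limma, adjusted p = 0.031), and Hoxa11 by -2.56 with a standard error of 0.52 (limma, adjusted p = 0.033). Hoxa9l was at -2.44, -1.93 and -3.05 in NP rats and at -4.23, -4.72 and -5.14 in D21 rats, on none of whose arrays it was above background. With the main processing NP over D21 was therefore at least 3.46-fold, and the difference missed the threshold (limma, adjusted p = 0.062). The difference was -0.27 with normexp background correction and -1.65 with slide as a block, so the bound depends on the processing. Hoxa13, the last gene of the cluster, was at 0.81, 1.77 and 0.95 in NP rats and at 0.63, 0.84 and 0.58 in D21 rats. These groups overlapped, with a difference of -0.49 and a standard error of 0.70 (limma, adjusted p = 0.75).

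The probe that the array calls Hoxa9 and RefSeq Hoxa7 was above background on no whole array and was not tested. Its values ran from -5.03 to -4.48 in NP whole and from -5.77 to -4.48 in D21 whole cervix. At positions 4 to 8, which act in the neck and trunk, 6 of 7 probes tested had higher values at D21 and none was called, with a median of 1.00, or 0.74 with probes above background on no array of the lower group at their bound. The median of all probes tested was -0.06. Hoxc6, Hoxa2, Hoxb8 and the Hoxc9 probe passed only through their D21 arrays. Hoxc6 and Hoxa2 were above background on no NP whole array, and D21 over NP was at least 1.37- and 1.14-fold (limma, adjusted p = 0.12 and 0.15). The widest change at these positions between probes above background in both groups was that of Hoxb6, 1.25.

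Slide and left-out rats bear on these calls. On the 1 slide that held both groups, D21 whole rats 5, 6 and 7 differed from NP whole rat 10 by -2.68 for Hoxd9 and -2.76 for Hoxd10, and by -1.48 for Hoxa10 and -1.96 for Hoxa11, and with slide as a block none of the 4 was called (limma, adjusted p = 0.057, 0.093, 0.28 and 0.30). With normexp background correction none was called either, with changes of -1.63, -1.43, -1.64 and -2.24 in the same order, and Hoxa9l was at -0.27. Of all 15983 probes, normexp left 3 called higher and 0 lower, and the slide block left 28 and 24. All 6 arrays were read on 1 scan day. Of the 4 genes only Hoxd9 was called without NP rat 8, without NP rat 10, without D21 rat 5 or without D21 rat 6, none was without D21 rat 7, Hoxa11 was not without D21 depleted rat 1, and without NP rat 9 Hoxd9 and Hoxd10 were lower and Hoxa2 and Hoxb6 higher. The 10 smooth muscle markers had a median of -0.83 and the fibroblast markers one of -0.07 in this comparison with none called, while 4 of 10 epithelial markers were higher with a median of 1.57, and their part in the Hox differences was not tested.

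**Figure D3:**
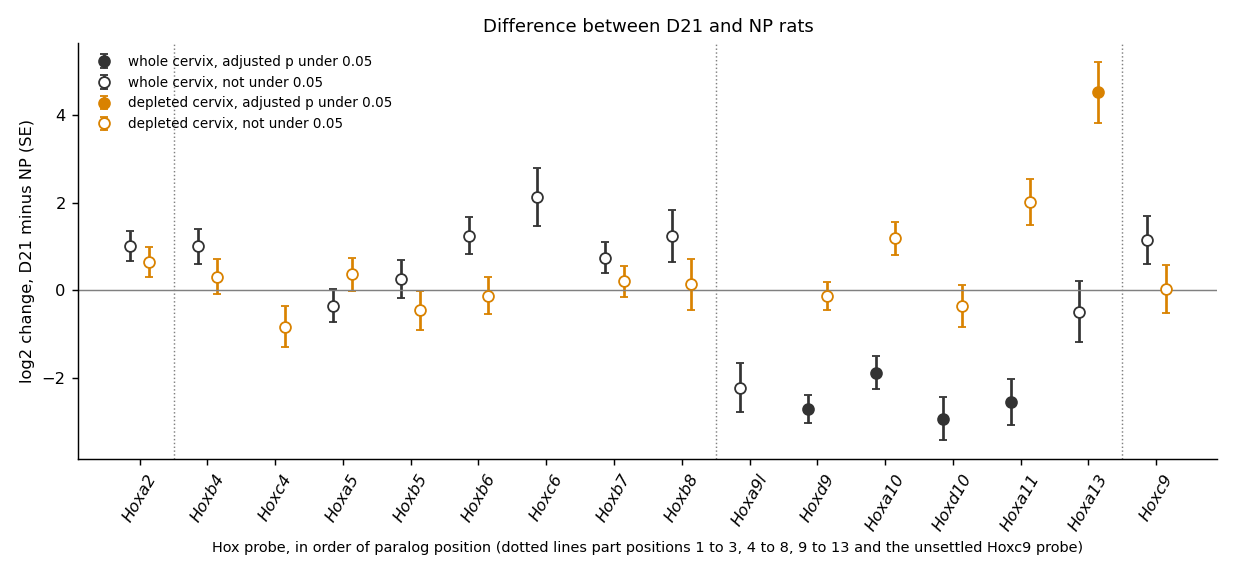
Log2 change of D21 minus NP rats, with its standard error from limma, for the Hox probes tested, in order of paralog position, in whole cervix (black) and in depleted cervix (orange); filled points have an adjusted p under 0.05. The filled black points are Hoxd9, Hoxa10, Hoxd10 and Hoxa11, all below 0, and the filled orange point is Hoxa13, at 4.52.

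In depleted cervix the D21 and NP rats were set against each other to see what differs among the cells that stay. Hoxa13, which marks the vaginal end of the tract, was higher at D21 by 4.52 on the log2 scale. It was the only one of 14 Hox probes tested that was called higher, where 2.25% of all 15144 probes tested were, and none was called lower (0 at an unadjusted p under 0.05 in limma, and 0 by the methods' test for unequal variances). Hoxa13 was at -2.96, -3.50 and -5.04 in NP rats 5, 6 and 7, with 2 of 3 arrays above background, so that it passed only through the D21 arrays, and at 1.24, 1.79 and -0.97 in D21 rats 1, 2 and 4. D21 rat 4 and NP rat 7, the lowest of their groups, shared a slide and a scan day. The standard error of the difference was 0.70 (limma, adjusted p = 0.0071). On the slide with rats 7 and 4 the D21 array was higher by 4.06, and on the slide with NP rats 5 and 6 and D21 rat 2 by 5.02. The call held without each of the 12 rats in turn, with adjusted p between 0.0018 and 0.040, and with slide as a block, normexp or another scaling, but not by limma on the 6 depleted arrays alone or on the arrays of the last scan day (limma, adjusted p = 0.13 and 0.097). It was also lost in the methods' test for unequal variances, with or without adjustment (adjusted p = 0.55 over all probes tested), and the probe was not tested where every array compared had to be above background. After adjustment that test called 0 of all 15144 probes, as did limma on the 6 depleted arrays alone. Leaving out any of the whole rats kept the difference at 4.52 and bore only on the spread and the adjustment.

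Hoxa11 and Hoxa10 had values in the same direction without being called. Hoxa11 was at -2.69, -4.61 and -2.42 in NP depleted and at -1.08, -1.16 and -1.45 in D21 depleted rats, a difference of 2.01 with a standard error of 0.52 (limma, adjusted p = 0.079); it was called without D21 depleted rat 4 or without NP depleted rat 7, where the difference was 2.12 and 2.42, as was a second Hoxb8 probe without D21 depleted rat 4. Hoxa10 was at -2.80, -4.03 and -3.02 in NP depleted rats, with 2 of 3 arrays above background, and at -2.31, -2.12 and -1.86 in D21 depleted rats, a difference of 1.19 (limma, adjusted p = 0.15). Hoxa2 differed by 0.64 (limma, adjusted p = 0.38), at -3.33, -2.89 and -3.46 in NP and -2.69, -2.52 and -2.54 in D21 rats. For these 3 genes the groups did not overlap, though how many of all probes did not was not counted.

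Hoxd9 and Hoxd10, the lowest against NP rats in whole D21 cervix, overlapped between the depleted groups. Hoxd9 was at -1.52, -1.58 and -0.94 in NP and at -1.63, -1.23 and -1.57 in D21 rats, a difference of -0.13 with a standard error of 0.31 (limma, adjusted p = 0.86), and Hoxd10 was at -2.80, -3.26 and -1.47 in NP and at -3.37, -2.80 and -2.46 in D21 rats, a difference of -0.36 with a standard error of 0.49 (limma, adjusted p = 0.73). At positions 4 to 8 the 7 probes tested ran from -0.83 for Hoxc4 to 0.36 for Hoxa5 with none called, and their median of 0.13 stood beside 0.0013 for all probes tested. Fibroblast markers were higher in D21 than in NP depleted cervix for 7 of 10 genes, with a median of 2.77, and smooth muscle markers for 3 of 7, with a median of 1.40, and their part in the values of Hoxa13, Hoxa11 and Hoxa10 was not tested.

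The comparison of whole with depleted cervix was designed to find genes that go with Mφs. In NP rats the Hox probes called split by position, and by cluster as well. Hoxa9l, Hoxa10, Hoxa11, Hoxa13, Hoxd9 and Hoxd10 were higher in whole cervix, and Hoxb4, Hoxb5, Hoxb6, Hoxb7, Hoxb8, Hoxc4 and the unsettled Hoxc9 probe were lower. The 6 higher probes were those tested at positions 9 to 13, and the 7 lower ones 6 of the 7 tested at positions 4 to 8 and the Hoxc9 probe. All higher ones lay in the Hoxa and Hoxd clusters and all lower ones in the Hoxb and Hoxc clusters. Hoxa5, which was not called, was the only Hoxa or Hoxd probe tested at positions 4 to 8. Position and cluster therefore cannot be told apart in these calls. Of 15119 probes tested 13.8% were called higher and 11.3% lower, against 6 and 7 of 14 Hox probes. Hoxa9l, Hoxa10 and Hoxa13 passed the filter only through the NP whole arrays, and Hoxc4, Hoxb8 and the Hoxc9 probe only through the depleted ones.

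**Figure D4:**
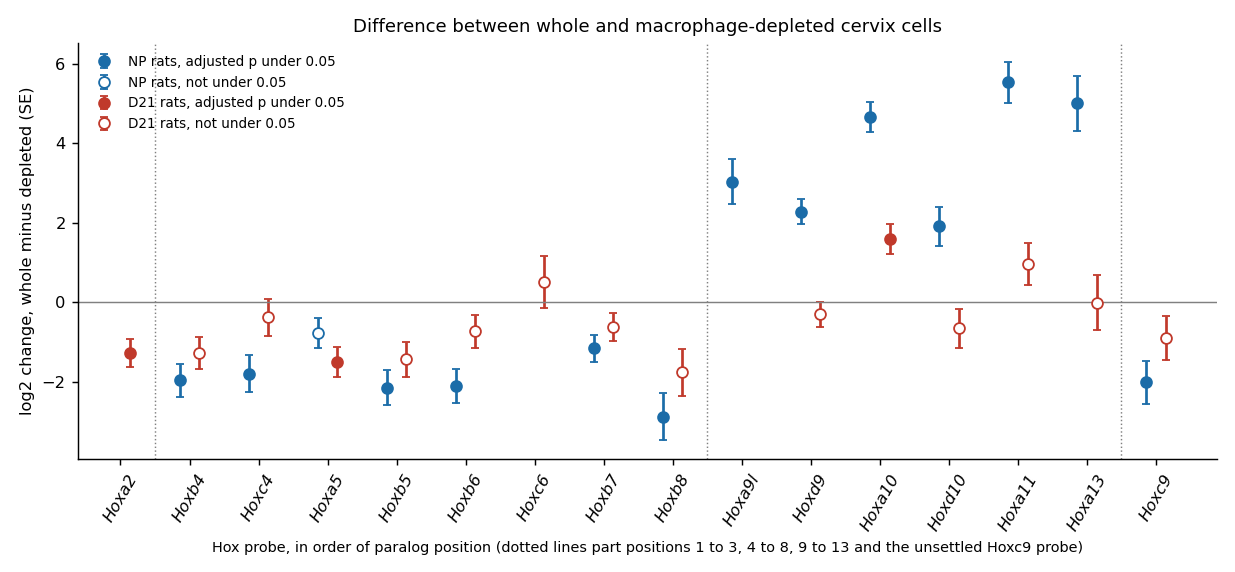
Log2 change of whole minus depleted cervix, with its standard error from limma, for the Hox probes tested, in order of paralog position, in NP rats (blue) and D21 rats (red); filled points have an adjusted p under 0.05. The NP points lie below 0 at positions 4 to 8 and between 1.92 and 5.53 at positions 9 to 13, while the D21 points at positions 9 to 13 lie between -0.65 and 1.59.

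The widest differences were those of Hoxa11, Hoxa13 and Hoxa10. Hoxa11 differed by 5.53 with a standard error of 0.52, Hoxa13 by 5.01 with one of 0.70 and Hoxa10 by 4.65 with one of 0.38 (limma, adjusted p = 3.9e-05, 0.00045 and 1.6e-05). These are 46.3-, 32.1- and 25.2-fold, and Hoxa10 and Hoxa13 were above background on 2 of 3 NP depleted arrays. For Hoxa11 the lowest whole array was at 1.69 and the highest depleted array at -2.42. Hoxa9l differed by 3.04, with 1 of 3 depleted arrays above background (limma, adjusted p = 0.0024). Hoxd9 was higher by 2.28 with a standard error of 0.31 and Hoxd10 by 1.92 with one of 0.49 (limma, adjusted p = 0.00042 and 0.015). Between the whole and depleted arrays of NP rats none of these 6 genes overlapped. That adds no support to calls made on the same arrays, and the share of all probes without overlap was not counted. Of all 15119 probes tested, 5758 had an unadjusted p under 0.05 in limma.

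Among the lower genes, Hoxb5, which acts in the neck, lung and gut, was at -2.80, -1.63 and -3.28 in NP whole rats 8, 9 and 10 and at -0.83, 0.30 and -0.73 in NP depleted rats 5, 6 and 7, a difference of -2.15 with a standard error of 0.44 (limma, adjusted p = 0.0049). The others ran from -2.87 for Hoxb8 to -1.16 for Hoxb7. For the Hoxc9 probe depleted over whole was at least 3.66-fold with the main processing. Its difference ran from -2.28 to -1.05 over the alternatives other than a rat left out. Hoxa5 was the 1 tested probe of positions 4 to 8 that was not called, with a difference of -0.78 (limma, adjusted p = 0.15). It was at -2.02, -1.79 and -2.52 in whole and at -1.68, -1.09 and -1.22 in depleted cervix.

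Within the 1 slide that held both NP groups, whole rats 8 and 9 against depleted rat 7, each of the 13 called probes differed in the same direction, Hoxa11 by 5.01, Hoxa13 by 6.33, Hoxa10 by 4.59, Hoxd9 by 1.88 and Hoxd10 by 0.96. Those arrays also went into the calls, so the agreement in direction is no separate support. Of the 6 higher genes, Hoxa9l, Hoxa10, Hoxa11, Hoxa13 and Hoxd9 were called without each rat in turn and with slide as a block, and Hoxd10 was not called without NP depleted rat 5, NP depleted rat 6 or NP whole rat 8, nor with the block (limma, adjusted p = 0.13). Of the 7 lower ones, Hoxb4, Hoxb5, Hoxb6 and Hoxb8 were called without each rat in turn, and with the slide block only Hoxc4 was. Hoxb7 was not called without NP depleted rat 6 or 7, NP whole rat 8 or 10 or D21 whole rat 6 or 7, Hoxc4 not without NP depleted rat 5 or NP whole rat 8 or 10, and the Hoxc9 probe not without those 3 or NP depleted rat 7. With normexp Hoxa9l and Hoxd10 were at 0.96 and 1.56 and not called (limma, adjusted p = 0.44 and 0.12), and of the 7 lower probes Hoxb6 and Hoxb8 alone were called. In this comparison 12 of 13 Mφ, 10 of 10 smooth muscle and 9 of 10 fibroblast markers were higher, and 6 of 10 epithelial markers were lower. Of 9 endothelial markers 1 was higher and 1 lower. The part of any of these cells in the Hox differences was not tested.

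In D21 rats the same comparison gave smaller differences than in NP rats for each Hox probe tested in both states but Hoxa5. Hoxa5 differed by -0.78 in NP rats, where Hoxa2 was not tested. Hoxa10 was higher in whole cervix by 1.59, or 3.00-fold, and Hoxa5 and Hoxa2, a gene of the hindbrain and face, were lower by 1.50 and 1.26. These are 1 and 2 of 15 Hox probes tested, where 8.45% of 16223 probes were called higher and 5.37% lower. Hoxa10 was at -0.34, -0.63 and -0.56 in D21 whole rats 5, 6 and 7 and at -2.31, -2.12 and -1.86 in D21 depleted rats 1, 2 and 4, with a standard error of 0.38 (limma, adjusted p = 0.022). Hoxa5 was at -2.98, -2.19 and -2.23 in whole and at -1.09, -0.37 and -1.43 in depleted cervix, with a standard error of 0.38 (limma, adjusted p = 0.027). Hoxa2 was at -3.82, -4.12 and -3.59 in whole and at -2.69, -2.52 and -2.54 in depleted cervix, with a standard error of 0.35 (limma, adjusted p = 0.039). None of the 3 genes overlapped between the groups. That adds no support to calls made on the same arrays, and the share of all probes without overlap was not counted.

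Hoxb5 came next, at -2.37, -2.42 and -2.16 in whole and -1.06, -0.64 and -0.95 in depleted cervix, a difference of -1.43 that missed the threshold (limma, adjusted p = 0.054). Of the 8 probes tested at positions 4 to 8, 7 had lower values in whole cervix, with a median of -1.0. At positions 9 to 13 the values were on either side of 0: Hoxa11 differed by 0.96 (limma, adjusted p = 0.21), Hoxd9 by -0.30 and Hoxd10 by -0.65. Hoxa13 differed by -0.0041 with a standard error of 0.70 (limma, adjusted p = 0.998). The median of all probes tested was -0.02. No slide held both D21 groups. On the last scan day D21 depleted rat 4 stood alone against the 3 whole arrays, which were higher by 1.35 for Hoxa10 and by 1.66 for Hoxa13. With slide or with scan day as a block no Hox probe was called. Nor was any without D21 depleted rat 1 or 2 or without D21 whole rat 5, 6 or 7, while without D21 depleted rat 4 there were 1 higher and 7 lower, and Hoxa2 was not called without NP depleted rat 5 or NP whole rat 10. With normexp background correction Hoxa10 was at 0.79 and no Hox probe was called. Over all probes the 1371 higher and 871 lower calls became 36 and 7 with the slide block and 80 and 19 with normexp. With scan day as a block they became 449 and 172.

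An interaction term asked if the difference between whole and depleted cervix was itself unequal in the 2 states, which is also the test of whether the change from NP to D21 differs between whole and depleted cervix. It was called for Hoxa11, Hoxd9, Hoxa10 and Hoxa13, 4 of 16 Hox probes tested, where 0.924% of 16557 probes had a called interaction below 0. The D21 difference, whole minus depleted, less the NP difference was -4.57 for Hoxa11, -2.58 for Hoxd9, -3.07 for Hoxa10 and -5.01 for Hoxa13, with standard errors of 0.74, 0.45, 0.53 and 0.99 (limma, adjusted p = 0.022, 0.023, 0.023 and 0.042). No Hox probe had a called interaction above 0 (2 at an unadjusted p under 0.05 in limma, where 2592 of all 16557 probes were in either direction). Hoxa9l and Hoxd10, the other tested genes of positions 9 to 13, had interactions of -3.36 and -2.57 (limma, adjusted p = 0.078 and 0.12), and at positions 4 to 8 the values ran from -0.72 for Hoxa5 to 2.48 for Hoxc6.

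The 4 genes reached this in different ways. Hoxd9 was above 0 in the 3 NP whole rats alone, and the other 9 rats lay between -2.0 and -0.94. Hoxa13 was low in the 3 NP depleted rats alone, where its highest value was -2.96, and the other 9 rats lay between -0.97 and 1.79. Hoxa10 and Hoxa11 were highest in NP whole, then D21 whole, D21 depleted and NP depleted cervix, without overlap. Not all of these steps were called: D21 against NP depleted cervix was called for neither gene, and whole against depleted D21 cervix not for Hoxa11. How many of all probes show such an order was not counted. Hoxd10 was highest in NP whole cervix, as Hoxd9 was, and its other 9 rats lay between -4.08 and -1.47. For Hoxa11, Hoxd9, Hoxa10 and Hoxa13 none was called without any single one of D21 depleted rats 1 and 2, NP whole rat 8 and D21 whole rats 5, 6 and 7. Without NP whole rat 10 Hoxa11 alone was called, without NP depleted rat 5 or 6 Hoxa10 and Hoxa11, and without NP whole rat 9 the 4 less Hoxa13. With normexp none was called, with values of -3.78, -2.18, -2.67 and -3.70 for the 4 in that order. Normexp called 0 of all 16557 probes tested. With slide as a block Hoxa13 alone was called, at -4.88 (limma, adjusted p = 0.036). The interaction was also below 0 and called for 6 of 10 fibroblast and 2 of 10 smooth muscle markers, with list medians of -2.78 and -1.64, and the part of those cells in the Hox interactions was not tested.

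**Figure D5:**
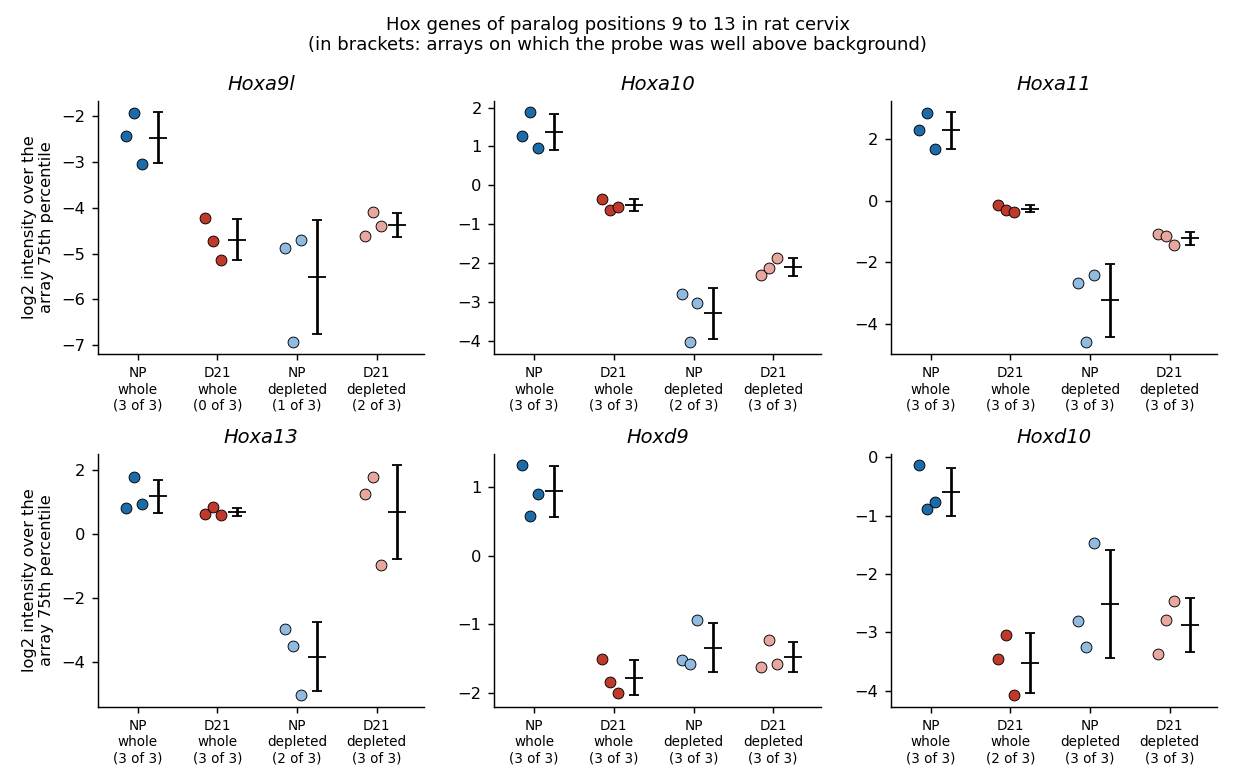
Log2 intensity over the array's 75th percentile of 6 Hox genes of positions 9 to 13, 1 point per rat, with the mean and SD of 3 rats beside each group and, in brackets, the arrays on which the probe was above background; each panel has its own scale. Hoxd9 and Hoxd10 are high in the NP whole rats and Hoxa13 is low in the NP depleted rats. Hoxa10 and Hoxa11 are highest in NP whole, then D21 whole, D21 depleted and NP depleted rats.

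Among genes that work with or act on Hox genes, the TALE cofactors moved with depletion in NP rats. Of 7 tested, 4 were higher in whole NP cervix, where 13.8% of all probes were, and 1 was lower, where 11.3% were, with a median of 1.01: Meis3 was higher by 3.16 and Meis2 by 1.29, and Meis1 was lower by 1.21 (limma, adjusted p = 3.5e-05, 0.036 and 0.022). Meis3 was higher in D21 than in NP depleted cervix by 1.68, and its interaction was -2.32 (limma, adjusted p = 0.012 and 0.026). None of the 7 was called between D21 and NP whole cervix, with a median of -0.43.

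The Polycomb and trithorax genes, whose proteins keep Hox clusters silent or active, were called in few cases. Of 16 tested in NP rats, 3 were lower in whole cervix, among them Cbx2 by 1.88 and Wdr5 by 0.88, and of 17 tested in D21 rats Bmi1 and Eed were higher, by 2.27 and 1.33, with list medians of -0.56 and -0.59. Of all probes 11.3% were called lower in NP rats and 8.45% higher in D21 rats, and the counts of this list lie near those shares. Genes that pattern the Müllerian duct were lower in whole NP cervix for 4 of 6 tested, where 11.3% of all probes were, with Wnt4 at -2.29, Pax2 at -2.87 and Msx2 at -1.58, and Wnt4 was lower in D21 rats as well, by 1.43. For Pax2 no NP whole array was above background, and no bound was computed for its value. Of 5 nuclear receptors tested, which include those for estrogen, progesterone and retinoic acid, Rarg and Rara were lower in whole NP cervix, by 1.00 and 0.87, against the same 11.3% of all probes, and Rarg in D21 cervix, by 1.35, where 5.37% of all probes were lower. In D21 against NP cervix, whole or depleted, none of the Polycomb, Müllerian and receptor genes was called.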

How the data were processed

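Gene expression was measured in dispersed cervix cells of 12 rats on 1-colour 4x44K rat arrays. The authors deposited scanner intensity values for each spot from Agilent Feature Extraction 9.5.3.1, with background subtracted and small signals replaced by a positive surrogate but no scaling between arrays, and a table of ratio values, which are intensities over the 75th percentile of each array, rounded. On each array at least 99.55% of the table's values lay near the scaled intensities, within 0.02 plus 0.02 times the table's value. The table served as an alternative.

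Between 294 and 648 outlier spots an array and the control spots were dropped, repeated spots were averaged, and log2 intensities were centred on the 75th percentile of the array. The fit used R 4.3.3 and limma 3.58.1 (functions lmFit and eBayes) with 4 group means, no covariates and 1 spread over the 12 arrays, and was tested on simulated data. Tables and figures were made with Python 3.11.15, numpy 2.4.6, pandas 2.3.3 and matplotlib 3.10.9. Groups and rat numbers came from the labels. An exact permutation test of 3 rats against 3 cannot go below p = 0.10 and was not used.

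Where the lower group had a Hox probe above background on no array, the fold is a bound, against the mean over its arrays of the larger of 2 values, that of the probe and the lowest among probes rated well above background. Such a bound holds for the main processing only. Full values were given for Hox genes that the study names, for those called in D21 against NP whole cervix and for the 4 with the smallest p in each other comparison, and other lists by up to 3 called genes a comparison. Genes of these lists that are counted but not named are not reported here. Cd68 and the 4 Mφ markers above background on no depleted array, Hoxb6, Hoxb8 and other probes given by their change alone were chosen after their values were seen. The members, lists and tests were chosen with earlier results of these data known. Alternatives were other thresholds and tests, background corrections, scalings, filters, array weights, slide and scan day as blocks, the authors' table and each rat left out.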

Additional observations from a re-analysis of the deposited data

Results flagged for a closer look

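The difference between whole and depleted cervix differed between D21 and NP rats for 4 Hox genes by the interaction test in limma. Hoxa13 had the widest interaction, -5.01, and it was higher in whole cervix by 5.01 in NP rats and differed by -0.0041 in D21 rats. That D21 difference had a standard error of 0.70 and ran from -0.83 to 1.73 over the alternatives. Hoxa11 had -4.57, with differences of 5.53 and 0.96. Hoxa10 had -3.07, with differences of 4.65 and 1.59. Hoxd9 had -2.58, with differences of 2.28 and -0.30. Groups of 3 rats are too small for the check of single outlying samples, and none was made.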

How the results depend on the processing

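No paired analysis was possible because the groups compared come from different rats, and a rat number that recurs in 2 groups does not mark the same animal. Each value named above kept its sign whenever it was called, and no called value reversed. Counts of Hox probes called, main value first, moved as follows. In D21 against NP whole cervix 4 became 0 with the Welch test adjusted, with normexp background correction and with slide as a block, and 2 with no filter on dim probes, and leaving out a rat gave 0 to 5. In D21 against NP depleted cervix 1 became 3 at the methods' threshold in limma, 0 with the Welch test at either threshold, 0 with limma on the arrays compared only, 0 for probes above background on every array compared, 2 with array weights and 0 on the last scan day's arrays, and leaving out a rat gave 1 to 3. Of whole against depleted D21 cervix 3 became 5 at the methods' threshold, 6 with array weights and 0 with the Welch test adjusted, normexp, the slide block, the scan day block and the last scan day's arrays, and leaving out a rat gave 0 to 8. In NP rats 13 became 5 and 2 with the Welch test at the methods' threshold and adjusted, 6 with normexp, 7 for probes above background on every array, 6 with the slide block and 7 on the last scan day's arrays, and leaving out a rat gave 9 to 13. For the interaction 4 became 0 with normexp, 2 for probes above background on every array, 1 with the slide block and 0 on the last scan day's arrays, and leaving out a rat gave 0 to 6. Calls over all probes moved as well. In D21 against NP whole cervix they went from 323 higher and 111 lower to 0 and 0 with the Welch test adjusted. There normexp gave 3 and 0, the slide block 28 and 24, and leaving out D21 whole rat 7 gave 1 and 0. In depleted cervix the Welch test adjusted and limma on the arrays compared gave 0 and 0. For the interaction 14 higher and 153 lower became 0 and 0 with normexp, and 0 and 16 with the slide block. In each case the cause was not tested.

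The slide block takes D21 depleted rat 1, alone on its slide, out of the comparison, and the last scan day leaves 1 depleted rat a state, assumed to vary like the other groups. The split by position in NP rats, tested probes of positions 9 to 13 higher and of 4 to 8 lower, held in 27 of 28 settings, the main one included. The exception was the one with no filter on dim probes, with 12 of 13 higher and 13 of 14 lower. Those counts take in 4 and 2 probes above background on no array, and all probes had a median of 0.19 there. Another test or threshold, the brightest probe of each gene or a D21 rat left out keeps each NP difference as it was. In those settings a sign could not change. The calls cannot tell this split from one by cluster. Of 37 Hox probes, 12 were above background on no array, and nothing can be said here of differences in them. Centring on the probes detected on all arrays moved the median of all probes from -0.02 to 0.17 in whole against depleted D21 cervix, and the calls from 1371 higher and 871 lower to 1623 and 599.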
